A study of Mus musculus with 9 samples.

Results

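Dendritic cells are the immune cells that take up material from a tumor, carry it to lymph nodes and present it to T cells. Conventional dendritic cells of type 1 (cDC1) present antigen to CD8 T cells and depend on the transcription factor Batf3, those of type 2 (cDC2) present mainly to CD4 T cells, and plasmacytoid dendritic cells (pDC) are known for type I interferon. A conventional dendritic cell that matures and leaves for a lymph node switches on a migratory program with the chemokine receptor Ccr7, the actin-bundling protein fascin and the chemokines Ccl17 and Ccl22.

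The 10 dendritic cell genes described here were chosen by symbol from the 19481 genes counted in whole pieces of tumor, and all 10 were present. Flt3 and Zbtb46 mark dendritic cells in general. Batf3, Xcr1, Clec9a and Itgae mark cDC1, Cd209a and Clec10a mark cDC2, Fscn1 marks migratory cells and Siglech marks pDC. Messenger RNA was sequenced from 9 tumors, 3 in each of 3 groups. All were grown under the skin of wild-type female DBA/2 mice, 6 to 8 weeks old, from KLN205 cells, an established squamous carcinoma line of the mouse lung. The line carried a doxycycline-inducible SMART shRNA vector with either a scrambled sequence (control) or one of 2 sequences against Tmprss11b, a membrane serine protease, called sh2 and sh3 in the labels. All groups, the control included, received doxycycline in the drinking water once the average tumor volume had reached 100 mm3, and the tumors were taken at day 50. The shRNA acts in the injected carcinoma cells and not in the dendritic cells, which come from the host, and the tumors grew under the skin and not in the lung. The sources give 3 biological replicates a group without saying whether each was grown from cells prepared separately, so p-values measure the spread between these tumors. The 6 epithelial genes listed summed to between 2997 and 6130 CPM in every tumor (CPM, here a count divided by the TMM-scaled total of its tumor and multiplied by 1000000), so epithelial RNA was present throughout.

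Between 20653219 and 24047784 reads were counted per tumor. At this depth a count of 0 allows a level of up to 3 counts, or 0.125 to 0.145 CPM, a limit that covers counting error only. The targeted gene, listed under its older symbol Tmprss11bnl, had 18, 51 and 42 counts in the control tumors, 7, 2 and 5 in the sh2 tumors and 10, 4 and 5 in the sh3 tumors. Its level was 1.53 ± 0.691 CPM (SD, n = 3), 0.200 ± 0.0994 CPM (SD, n = 3) and 0.293 ± 0.147 CPM (SD, n = 3) in that order, and the shRNA tumors did not overlap the controls. On the log2 scale it differed from the control by −2.89 with sh2 and −2.36 with sh3 (edgeR quasi-likelihood test, FDR = 0.999 and 0.753). With the shRNA groups joined, an exact permutation of the tumors gave p = 0.0119, which is as low as 6 against 3 tumors can reach, but the knockdown itself did not pass an FDR of 0.05. No gene of the 14725 tested did in any of the 4 comparisons (0% called), although an unadjusted p under 0.05 was found for 518, 976, 602 and 1057 genes in sh2 against control, sh3 against control, both shRNAs against control and sh3 against sh2. DESeq2 called 2, 41, 9 and 48 genes in these comparisons, none of them a dendritic cell gene of the 10. In bulk tissue, fewer cells of a type and less of its RNA per cell cannot be told apart, and this holds for every value that follows.

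The dendritic cell genes differed widely in level from each other. In TPM, which is corrected for gene length, Fscn1 stood at 188 ± 73.5 (SD, n = 9 tumors) and was above each of the others in all 9 tumors. Clec10a at 21.8 ± 8.07 and Batf3 at 18.04 ± 7.86 TPM (SD, n = 9) came next, and their order was not resolved, since Clec10a was the higher one in 5 of 9 tumors. Cd209a at 4.54 ± 3.78, Clec9a at 4.23 ± 2.33, Zbtb46 at 3.82 ± 1.25 and Xcr1 at 3.46 ± 2.71 TPM (SD, n = 9) formed a group whose neighbours did not separate beyond their spread, each being above the next in 4, 4 and 6 tumors of 9. Itgae at 1.87 ± 0.740, Flt3 at 1.13 ± 0.357 and Siglech at 1.02 ± 0.447 TPM (SD, n = 9) were lowest. Batf3 was above Cd209a in all 9 tumors, Xcr1 above Itgae in 6, and Itgae was above Flt3, and Flt3 above Siglech, in 8 of 9. Raw counts ranged from 5 for Cd209a in a single tumor to 7900 for Fscn1, and all 10 passed the filter on low counts.

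No dendritic cell gene passed an FDR of 0.05 in any comparison. Against a background of 0% called, the lowest FDR among the 10 was 0.999 with sh2, 0.760 with sh3, 0.982 with both shRNAs together and 0.673 between the shRNAs. The only unadjusted p under 0.05 belonged to Siglech between the shRNAs, 1 of 10 beside 7.18% of all genes tested. The corresponding counts were 0 of 10 in the other comparisons, beside 3.52% with sh2, 6.63% with sh3 and 4.09% with both. The tumors of 2 groups were fully apart for 1 gene of 10, again Siglech, in sh2 against control, where 11.4% of all genes were apart. This was so for 0 of 10 with sh3, both shRNAs and between the shRNAs, where the background was 12.2%, 2.17% and 10.1%.

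In sign, 9 of 10 genes were lower with sh2 than in the control, with a median log2 fold change of −0.47, while 48.2% of all genes tested were lower and their median was 0.01. With sh3, 4 of 10 were lower and the median was 0.09, beside 45.1% lower and a median of 0.03 over all genes tested. These 2 comparisons use the same 3 control tumors. Without the tumor sh2 replicate 2, the count for sh2 was 8 of 10. With both shRNAs together 8 of 10 were lower than in the control (median −0.19), beside 45% of all genes tested (median 0.02). Without sh3 replicate 1 this was 5 of 10. Between the shRNAs, 2 of 10 were lower in sh3 than in sh2 (median 0.33), beside 45.1% of all genes tested (median 0.03). This became 6 of 10 once sh2 replicate 2 was left out.

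**Figure D1:**
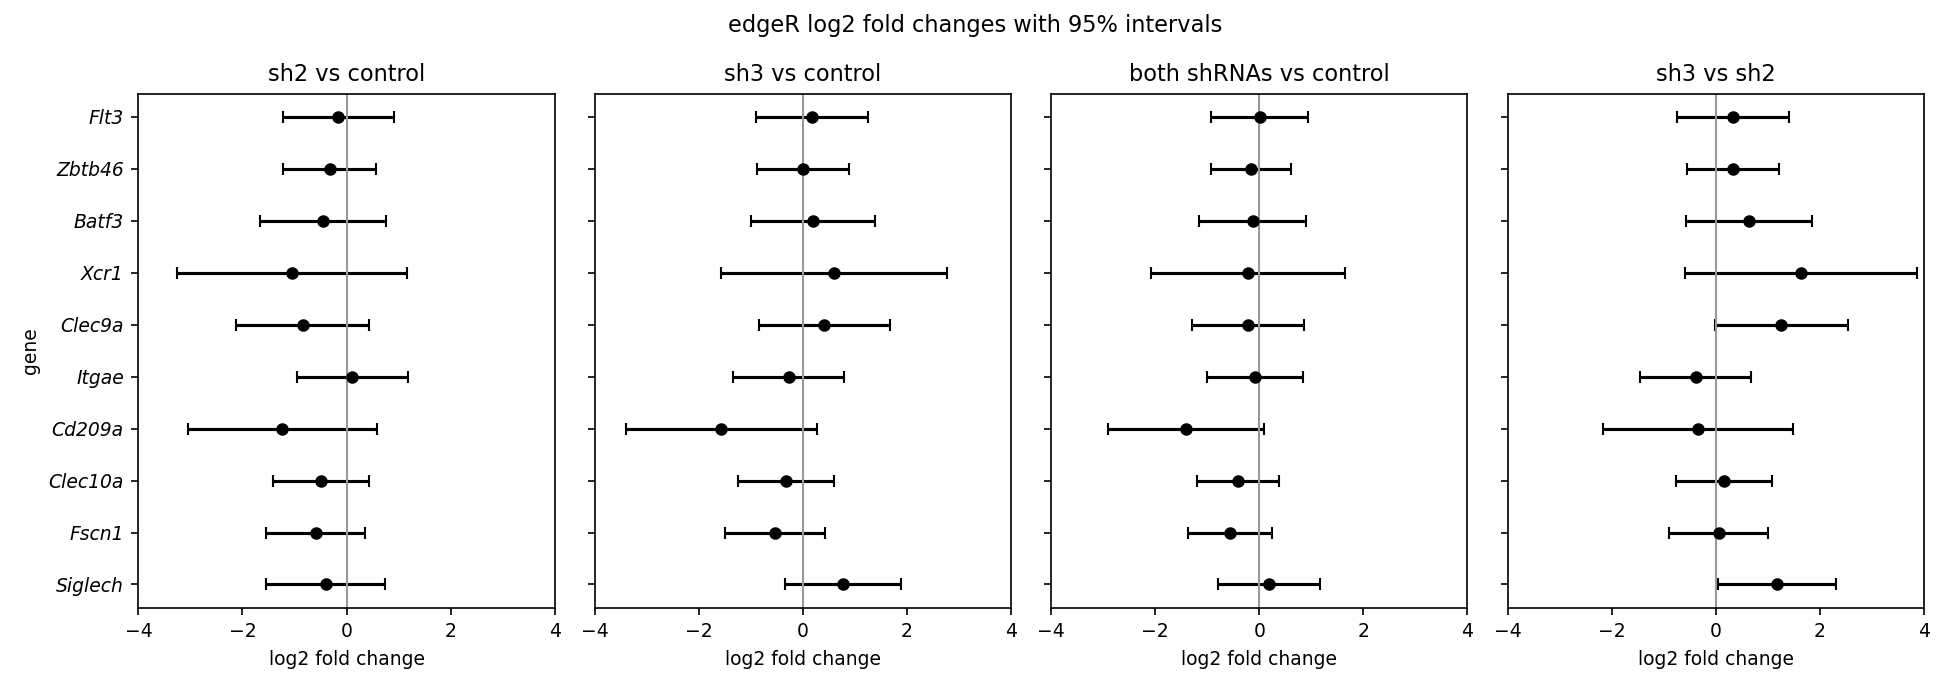
Log2 fold changes of the 10 dendritic cell genes in 4 comparisons, from the edgeR fit of all 9 tumors. Points are estimates and bars are 95% intervals from the standard error and the degrees of freedom of the fit. All bars cross 0 except that of Siglech between the shRNAs (0.04 to 2.31), which did not pass the FDR threshold.

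Single tumors set much of the spread. The tumor sh2 replicate 2 had the lowest level of the 9 for 6 of the 10 genes (Flt3, Zbtb46, Clec9a, Cd209a, Fscn1 and Siglech), and it was the lowest for 16% of all genes tested. The tumor sh3 replicate 1 was lowest for 3 (Batf3, Xcr1 and Itgae), and lowest for 22.6% of all genes. The remaining gene, Clec10a, was lowest in sh3 replicate 3. No control tumor was lowest for any of them. Both of these tumors also had the least Ptprc, the gene of the pan-leukocyte protein CD45, with 97.9 and 93.2 CPM beside 143 to 251 CPM in the other 7. The 10 pan-DC and MHC class II genes summed to 2224 and 2856 CPM in them beside 4790 to 13360 in the rest, the macrophage genes to 1467 and 1014 beside 2365 to 5232, and the T cell genes to 23.4 and 53.4 beside 56.5 to 165. Not every summed immune list was low there. The monocyte genes summed to 767 and 726 CPM beside 358 to 865, and the migratory genes to 345 CPM in sh2 replicate 2 beside 312 to 516. In sh3 replicate 1 the NK cell genes summed to 76.3 CPM beside 42.4 to 84.5. The B cell genes summed to 14.3 CPM there beside 5.83 to 20.3. All these sums lay within the range of the rest. Few genes carried the monocyte and NK cell sums. Ly6c2 gave 272 and 581 CPM of the monocyte sums, and Plac8 268 CPM in sh2 replicate 2. In sh2 replicate 2, Ccr2, Cx3cr1 and Fcgr4 were below every tumor but sh3 replicate 1. In sh3 replicate 1, these 3 and Plac8 were each at their lowest of the 9 tumors. Eomes gave 60.4 CPM of the NK cell sum there, beside 8.09 CPM for Klrk1, 4.11 for Ncr1 and 3.70 for Klrb1c. The epithelial genes were highest in sh2 replicate 2 (6130 CPM), with 4161 CPM in sh3 replicate 1 and 2997 to 4654 CPM in the rest. The part of these differences in any result on the dendritic cell genes was not tested.

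**Figure D2:**
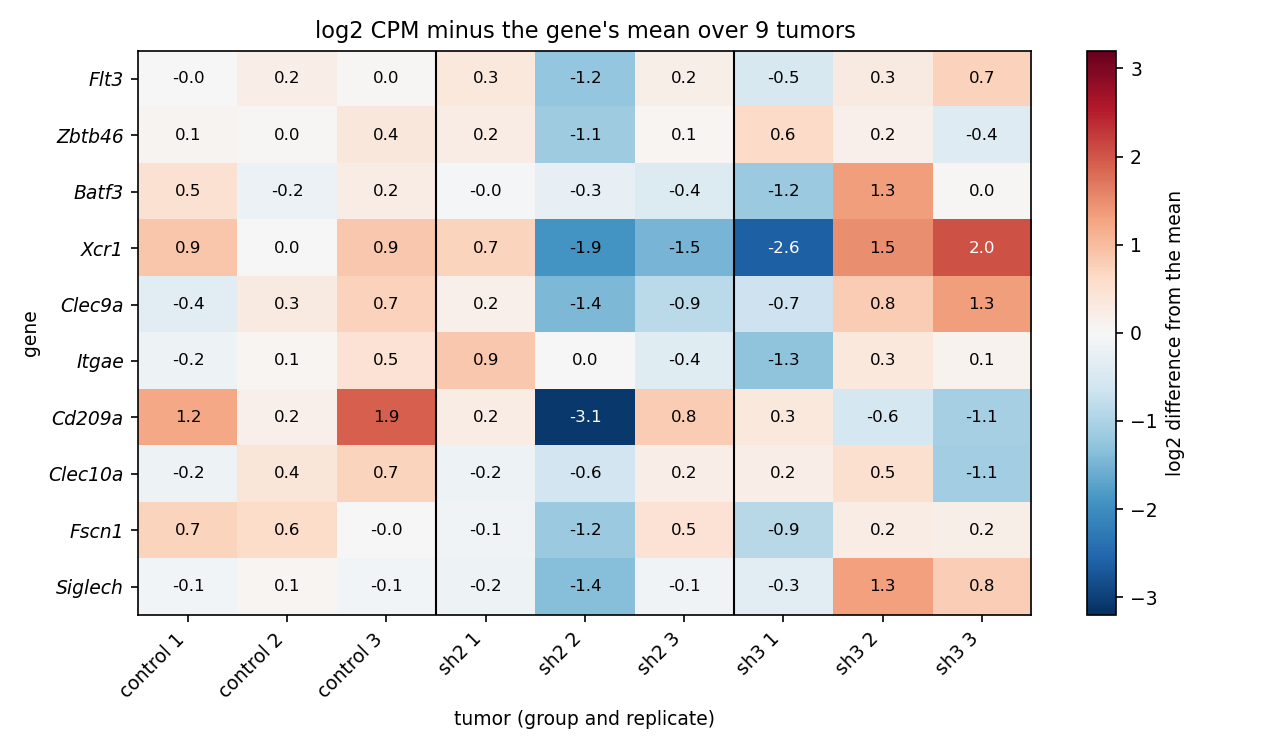
Each cell gives the log2 CPM of a dendritic cell gene (rows) in a tumor (columns) minus that gene's mean over the 9 tumors, in blue where lower and red where higher. The cells are drawn without a prior count. With a prior count of 2 the column of sh2 replicate 2 has a median of −1.17. Only Itgae is at its mean in that column, and the widest spread over the tumors is in the rows of Xcr1 and Cd209a.

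Among the general dendritic cell genes, Flt3, the receptor for the cytokine that drives dendritic cell development, was at 1.70, 1.99 and 1.76 CPM in the controls. It was at 2.19, 0.724 and 1.96 CPM with sh2 and at 1.20, 2.08 and 2.87 CPM with sh3. The groups overlapped, and apart from the low sh2 replicate 2 and sh3 replicate 1 the tumors lay within a narrow band. The log2 fold change of Flt3 was −0.16 with sh2 (95% interval −1.23 to 0.91) and 0.17 with sh3 (−0.89 to 1.24). Flt3 lies on chromosome 5 (147330741 to 147400489, minus strand, GRCm38), and its span overlaps the transcript Gm26597 on the other strand. Whether exons of the 2 overlap was not tested. The strand setting of the counting is not given in the sources used here, so reads of shared exon bases could not be told apart.

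Zbtb46, a transcription factor of conventional dendritic cells that endothelial cells also make, was at 5.62, 5.50 and 6.79 CPM in the controls and at 6.27, 2.41 and 5.59 CPM with sh2. With sh3 it was at 8.09, 5.94 and 3.98 CPM, so the sh3 tumors spanned the controls on both sides. Its log2 fold changes of −0.33 with sh2 and 0.01 with sh3 were within 1 standard error of 0 (0.39 in both). Across the 9 tumors its log2 CPM had a Pearson r of −0.10 with the mean of 7 endothelial genes (exact permutation p = 0.786) and a Spearman rho of −0.03 (p = 0.948, exact permutation). Without the 2 tumors farthest from the median of Zbtb46 (sh2 replicate 2 and sh3 replicate 1) r was 0.80 (exact permutation p = 0.0506, adjusted 0.228). The rho of these 7 tumors was 0.50 (exact permutation p = 0.267).

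The widest spreads of the 10 belonged to Cd209a, 31.7-fold between the highest and the lowest tumor, and to the cDC1 gene Xcr1. Xcr1, the receptor for the chemokine Xcl1 that activated T and NK cells release, was at 8.30, 4.59 and 8.22 CPM in the controls. It was at 7.37, 1.21 and 1.63 CPM with sh2. It was at 0.739, 12.8 and 18.5 CPM with sh3, a 24.98-fold range within a group of 3 that held both the lowest and the highest tumor of the series. Clec9a, a receptor for actin exposed on dead cells, was at 4.13, 6.54 and 8.84 CPM in the controls, 5.94, 1.98 and 2.92 CPM with sh2 and 3.37, 9.30 and 13.3 CPM with sh3. For both genes, 2 of 3 sh2 tumors lay below every control and 2 of 3 sh3 tumors above every control, while sh2 replicate 1 lay among the controls and sh3 replicate 1 below them. Between the shRNAs the log2 difference was 1.64 for Xcr1 (95% interval −0.59 to 3.88, FDR = 0.701) and 1.26 for Clec9a (−0.02 to 2.54, unadjusted p = 0.0526, FDR = 0.673). Without sh3 replicate 1 these were 2.19 (FDR = 0.182) and 1.65 (FDR = 0.171). Against the control they were −1.05 (standard error 0.98) and −0.85 (0.56) with sh2, and 0.60 (0.96) and 0.42 (0.55) with sh3, none with an unadjusted p under 0.05. The sh2 values turned on single tumors. Without sh2 replicate 1 they were −2.31 for Xcr1 and −1.41 for Clec9a (unadjusted p = 0.0463), without sh2 replicate 2 they were −0.63 and −0.54, without sh2 replicate 3 that of Xcr1 was −0.69, and without control replicate 3 that of Clec9a was −0.56. Clec9a shares 4.02% of the 50-base stretches of its transcripts with Clec1b, which overlaps it on the same strand of chromosome 6, so a small part of its reads could belong to either.

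Xcr1 and Clec9a followed each other across the tumors. Their log2 CPM had a Pearson r of 0.87 over 9 tumors (exact permutation p = 0.0028, 0.0159 after Benjamini-Hochberg adjustment over 9 pairs) and a Spearman rho of 0.83 (exact permutation p = 0.00827, adjusted 0.0372). The 9 pairs were chosen with earlier results of these data known, so their adjusted values are no independent evidence. Without the 2 tumors farthest from the median of Xcr1 (sh3 replicate 1 and sh2 replicate 2), r was 0.85. With the group means removed it was 0.88, with an exact permutation p of 0.0463, or 0.139 after adjustment. Both were also low in sh2 replicate 2 and sh3 replicate 1, the 2 tumors with the least Ptprc. The 250 bases before the start site of each, from RefSeq on GRCm38.p6 and read 5′ to 3′ on the strand of the gene, are shown because the levels of these genes followed each other. Neither holds TGANTCA (the AP-1 and BATF type, on both strands, in 6.75% of 32851 promoters of the same length), GAANNGAAA (the interferon response type, 6.31%) or GAGGAAGT (the PU.1 type, 2.44%), so no letters are in capitals.
Xcr1, chr9:123862030-123862279, minus strand: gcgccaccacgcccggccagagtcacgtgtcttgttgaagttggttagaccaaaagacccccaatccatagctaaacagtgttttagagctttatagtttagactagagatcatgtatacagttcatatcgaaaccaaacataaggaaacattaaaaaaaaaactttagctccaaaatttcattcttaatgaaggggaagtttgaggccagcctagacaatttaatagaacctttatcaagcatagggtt
Clec9a, chr6:129408612-129408861, plus strand: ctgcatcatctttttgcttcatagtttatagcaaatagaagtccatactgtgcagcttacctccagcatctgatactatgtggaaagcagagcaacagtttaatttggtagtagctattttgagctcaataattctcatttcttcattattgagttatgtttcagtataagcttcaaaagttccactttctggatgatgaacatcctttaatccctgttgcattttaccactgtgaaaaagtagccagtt

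**Figure D3:**
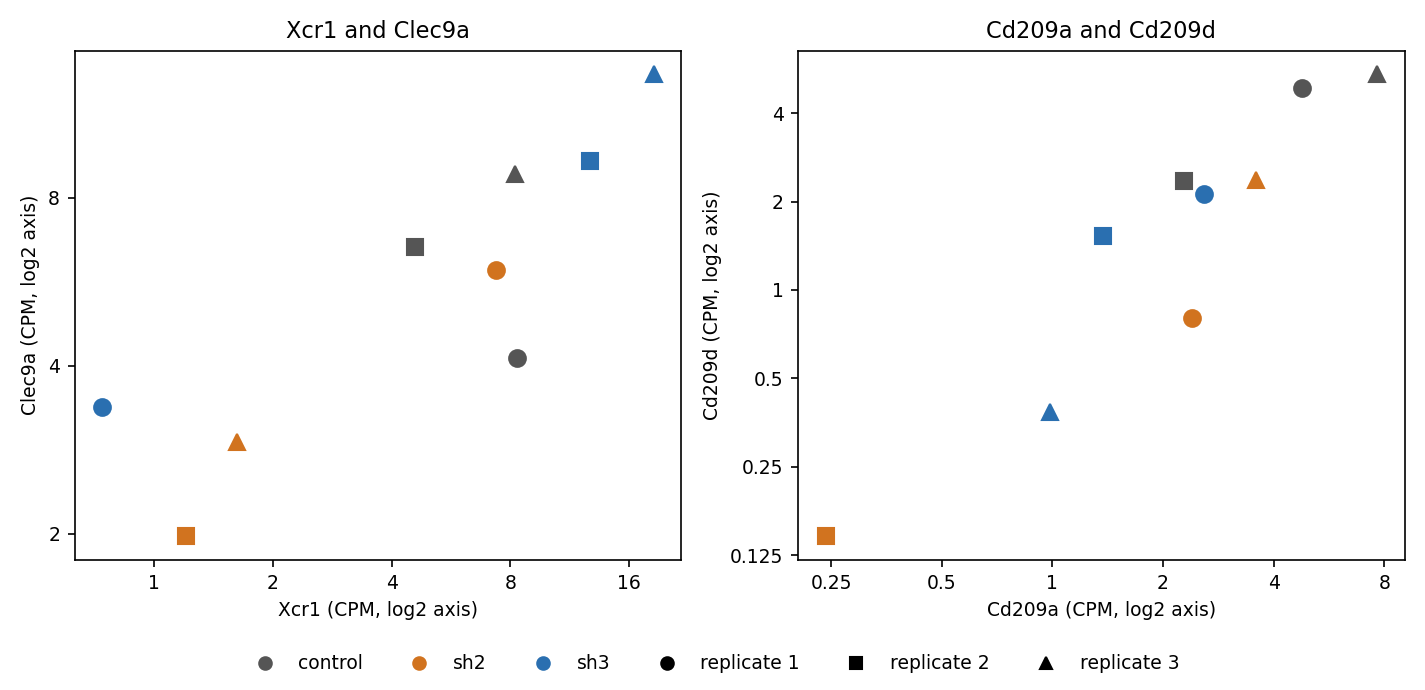
Levels of 2 pairs of genes in the 9 tumors, in CPM on log2 axes, with the color giving the group and the shape the replicate. Xcr1 and Clec9a (left) are ordered alike from the low sh2 and sh3 tumors to the 2 high sh3 tumors. Cd209a and Cd209d (right) run alike from sh2 replicate 2 to control replicate 3, with control replicate 2 among the shRNA tumors.

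Xcl1, the ligand of Xcr1, and Cxcl9, a chemokine that interferon-stimulated myeloid cells make to attract T cells, were compared with Xcr1 after the values had been seen. Xcl1 was at 6.43, 5.83 and 6.63 CPM in the controls, 8.88, 1.64 and 4.42 CPM with sh2 and 6.10, 13.2 and 22.0 CPM with sh3. Its r with Xcr1 was 0.77 (exact permutation p = 0.00937) with a rho of 0.83 (exact permutation p = 0.00827), and r was 0.86 without the 2 tumors farthest on Xcr1. Cxcl9 was at 213, 330 and 424 CPM in the controls, 306, 47.8 and 141 CPM with sh2 and 253, 824 and 773 CPM with sh3. Its r with Xcr1 was 0.76 (exact permutation p = 0.0147) with a rho of 0.72 (exact permutation p = 0.0369), and 0.85 without those 2 tumors. These p-values are not adjusted for the choice of the pairs.

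Batf3 (chromosome 1, 191097847 to 191108945, plus strand, GRCm38), the transcription factor that cDC1 need, was at 7.41, 4.63 and 6.22 CPM in the controls, 5.14, 4.35 and 3.88 CPM with sh2 and 2.31, 13.3 and 5.34 CPM with sh3. Its sh2 tumors were close to each other and reached into the range of the controls, while sh3 held both the lowest and the highest tumor. It differed by −0.45 on the log2 scale with sh2 (standard error 0.53) and 0.19 with sh3 (0.53), and without sh3 replicate 2 the latter was −0.67. Itgae, the integrin chain CD103 of cDC1 that tissue-resident T cells also carry, was at 3.15, 3.68 and 4.83 CPM in the controls, 6.36, 3.53 and 2.71 CPM with sh2 and 1.43, 4.42 and 3.81 CPM with sh3. Of the 10 genes it alone was above 0 in sh2 against control, at 0.11 (standard error 0.47). Its r with the mean of 8 T cell genes was 0.36 (exact permutation p = 0.303) and its rho 0.75 (exact permutation p = 0.0255, 0.0765 after adjustment over the 9 pairs). The span of Itgae, on the plus strand of chromosome 11, overlaps Haspin on the minus strand. Whether exons of the 2 overlap was not tested, and reads of shared exon bases could not be told apart without the strand setting.

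**Figure D4:**
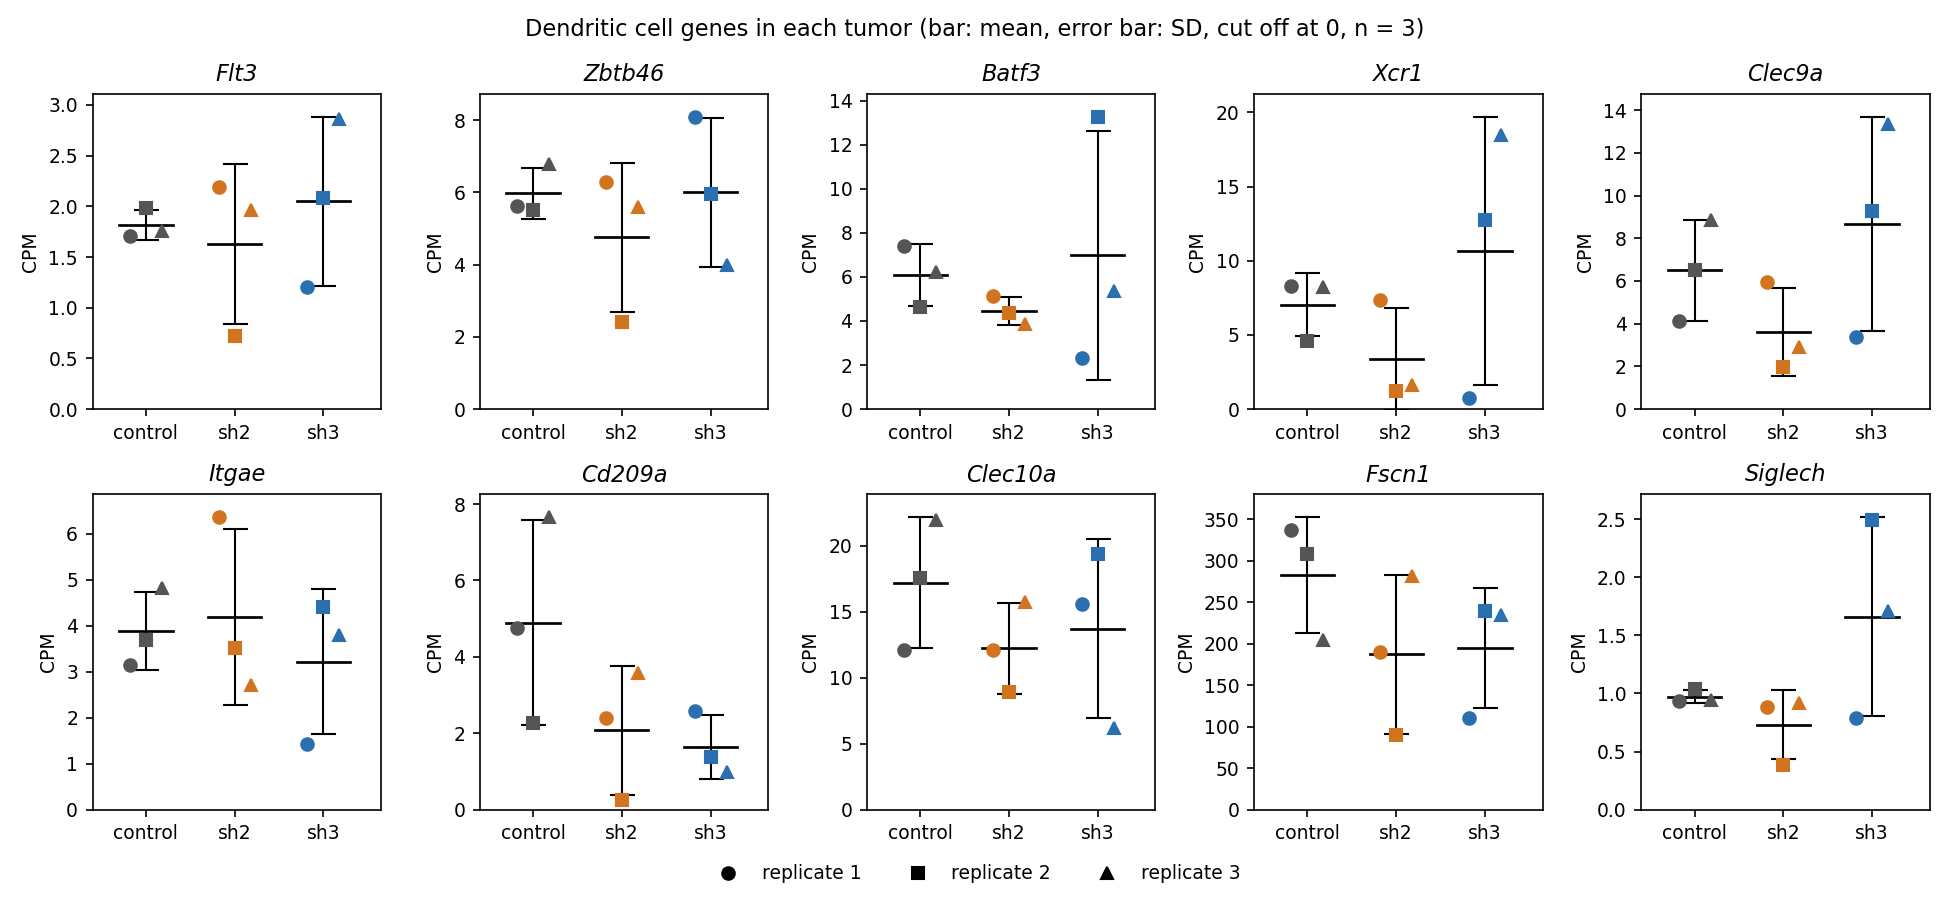
CPM of the 10 dendritic cell genes in each tumor, with the group on the horizontal axis, a point per tumor shaped by replicate, the mean as a bar and the SD (n = 3) as error bars cut off at 0. The controls are close to each other for Flt3, Zbtb46 and Siglech, and the sh3 tumors are spread widest for Batf3, Xcr1, Clec9a and Siglech.

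Cd209a (chromosome 8, 3743397 to 3748984, minus strand, GRCm38) is the mouse gene of the DC-SIGN family found on cDC2 and on dendritic cells derived from monocytes. It showed the largest fold change of the 10 with both shRNAs together against the control. It was at 4.77, 2.28 and 7.65 CPM in the controls, 2.40, 0.241 and 3.59 CPM with sh2 and 2.59, 1.37 and 0.983 CPM with sh3. The control replicate 2 lay among the shRNA tumors, and sh2 replicate 2 rests on 5 counts (exact Poisson 95% interval 1.62 to 11.7, counting error only). Its log2 fold change was −1.23 with sh2 (standard error 0.80, FDR = 0.999), −1.57 with sh3 (0.81, FDR = 0.760) and −1.40 with both together (0.66, unadjusted p = 0.0635, FDR = 0.982). An exact permutation of the 9 tumors gave p = 0.119 for both against control, where the smallest possible is 0.0119. Without control replicate 3 the value was −0.93. With sh2 it was −0.75 without that tumor, −0.70 without sh2 replicate 2 and −1.86 without sh2 replicate 3.

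The near relatives of Cd209a in the same cluster on chromosome 8 showed a like pattern of levels. Cd209d, a lectin of the same family, was at 4.85, 2.36 and 5.44 CPM in the controls, 0.800, 0.145 and 2.38 CPM with sh2 and 2.13, 1.52 and 0.385 CPM with sh3. Its log2 fold change with both shRNAs was −1.78 (standard error 0.70, unadjusted p = 0.0319, FDR = 0.982). Cd209b (−1.74), Cd209e (−1.27), Cd209f (−1.21) and Cd209g (−1.80) were lower too, none with an unadjusted p under 0.05, and Cd209c was too low to be tested. Cd209b marks macrophages of the spleen and lymph nodes, and Cd209f and Cd209g share 29.8% and 16.6% of their 50-base stretches with each other, so their counts are uncertain. Cd209a shares none with another gene. Over the 9 tumors the log2 CPM of Cd209a and Cd209d, a pair chosen after the values had been seen, had an r of 0.93 (exact permutation p = 0.000345) and a rho of 0.92 (exact permutation p = 0.00131), and r was 0.83 without sh2 replicate 2 and control replicate 3. The 250 bases before their start sites, from RefSeq on GRCm38.p6 and read 5′ to 3′ on the minus strand, are shown because the levels of these genes followed each other. The capitals mark TTTCNNTTC, the reverse complement of the interferon response type GAANNGAAA, which 6.31% of all promoters hold.
Cd209a, chr8:3748985-3749234, minus strand: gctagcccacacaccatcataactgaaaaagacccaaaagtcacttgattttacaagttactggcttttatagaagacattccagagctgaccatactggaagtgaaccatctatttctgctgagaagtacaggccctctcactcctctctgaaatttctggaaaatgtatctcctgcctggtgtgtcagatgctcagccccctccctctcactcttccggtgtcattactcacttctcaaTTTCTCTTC
Cd209d, chr8:3878500-3878749, minus strand: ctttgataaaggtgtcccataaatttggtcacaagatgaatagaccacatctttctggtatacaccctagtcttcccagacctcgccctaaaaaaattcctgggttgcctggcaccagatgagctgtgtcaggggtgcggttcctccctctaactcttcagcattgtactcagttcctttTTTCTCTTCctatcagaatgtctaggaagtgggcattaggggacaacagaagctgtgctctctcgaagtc

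The match lies at −9 to −1 from the start site in Cd209a and at −70 to −62 in Cd209d. Of the 8 dendritic cell genes with a promoter in the table, Cd209a alone held these letters, and Cd209d and Cd209e did among the relatives. A match describes the letters only.

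Clec10a, a galactose-type lectin of cDC2 and of macrophages, was at 12.1, 17.6 and 22.0 CPM in the controls, 12.1, 8.89 and 15.8 CPM with sh2 and 15.6, 19.4 and 6.20 CPM with sh3. The groups overlapped, with log2 fold changes of −0.49 with sh2 (95% interval −1.42 to 0.44) and −0.33 with sh3 (−1.26 to 0.60). Its paralog Mgl2, also a gene of cDC2, was at 7.62, 18.4 and 8.68 CPM in the controls, 17.3, 20.2 and 11.5 CPM with sh2 and 16.0, 22.8 and 2.48 CPM with sh3, with log2 fold changes of 0.50 and 0.25. Clec10a shares 9.02% of its 50-base stretches with other genes, Mgl2 first among them, so reads could be split between the 2. The r of Clec10a with the mean of 9 macrophage genes was 0.44 (exact permutation p = 0.227) and its rho 0.70 (exact permutation p = 0.0433, adjusted 0.0973). With Cd209a its r was 0.62 (exact permutation p = 0.0744), which became 0.37 without the 2 tumors farthest on Cd209a, and its rho was 0.52 (exact permutation p = 0.162).

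Fscn1 (chromosome 5, 142960343 to 142973185, plus strand, GRCm38), the actin-bundling protein fascin of migratory dendritic cells, is also made by many carcinoma cells, and its level here was above that of every other dendritic cell gene. It was at 336, 308 and 204 CPM in the controls, 190, 90.0 and 282 CPM with sh2 and 111, 240 and 234 CPM with sh3. The lowest control lay among the shRNA tumors, and Fscn1 differed by −0.59 on the log2 scale with sh2, −0.54 with sh3 and −0.57 with both (95% interval −1.38 to 0.24, FDR = 0.982). With sh2 it was −1.002 without sh2 replicate 3 and −0.26 without sh2 replicate 2, and with sh3 it was −0.25 without sh3 replicate 1. It did not follow Ccr7, the receptor that leads dendritic cells to lymph nodes. Ccr7 was at 4.21, 3.89 and 3.44 CPM in the controls, 8.04, 5.46 and 3.71 CPM with sh2 and 4.21, 10.1 and 5.13 CPM with sh3. The r of Fscn1 with Ccr7 was −0.13 (exact permutation p = 0.775) with a rho of −0.25 (exact permutation p = 0.521). With the mean of 6 epithelial genes the r of Fscn1 was −0.60 (exact permutation p = 0.0812) and its rho −0.15 (exact permutation p = 0.708), and r was 0.55 without sh2 replicate 2 and sh3 replicate 1, so its sign rests on those 2 tumors.

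Of the 15 genes listed for migratory and mature dendritic cells, 0 passed an FDR of 0.05, and 2 had an unadjusted p under 0.05 in each comparison with the control, beside 3.52% of all genes with sh2, 6.63% with sh3 and 4.09% with both. Ccl22 and Ccl17, chemokines of mature dendritic cells that attract cells bearing Ccr4, were these 2 with sh2 and with both shRNAs. Both were highest in sh2 replicate 2, the tumor that was lowest for 6 of the 10 dendritic cell genes. It also had the highest sum of epithelial genes (6130 CPM). Which cells of the tumors made these chemokines was not tested. Ccl22 was at 7.07, 7.03 and 8.31 CPM in the controls, 18.5, 32.1 and 8.63 CPM with sh2 and 9.15, 17.1 and 12.8 CPM with sh3. All 6 shRNA tumors were above every control, in a comparison where 2.17% of all genes tested were fully apart in either direction. The log2 fold change of Ccl22 was 1.40 with sh2 (standard error 0.43, unadjusted p = 0.00966, FDR = 0.999) and 0.80 with sh3 (0.43). Without sh2 replicate 2 the value with sh2 was 0.87. Ccl17 was at 2.43, 3.31 and 2.78 CPM in the controls, 7.75, 18.7 and 3.17 CPM with sh2 and 4.95, 17.8 and 2.35 CPM with sh3, so 2 of 3 tumors in each shRNA group were above the controls. Its log2 fold change was 1.80 with sh2 (standard error 0.79, unadjusted p = 0.0495) and 0.95 without sh2 replicate 2. The 2 with sh3 were Pdcd1lg2, the PD-1 ligand PD-L2, at 1.01 (unadjusted p = 0.0482), and Apol7c, an apolipoprotein L gene of mature cDC1, at 1.42 (unadjusted p = 0.0291). Fscn1 and the chemokines Ccl22 and Ccl17 thus differed in sign with both shRNAs against the control. Fscn1 was at −0.57 beside 1.10 for Ccl22 and 1.68 for Ccl17, each short of the FDR threshold.

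**Figure D5:**
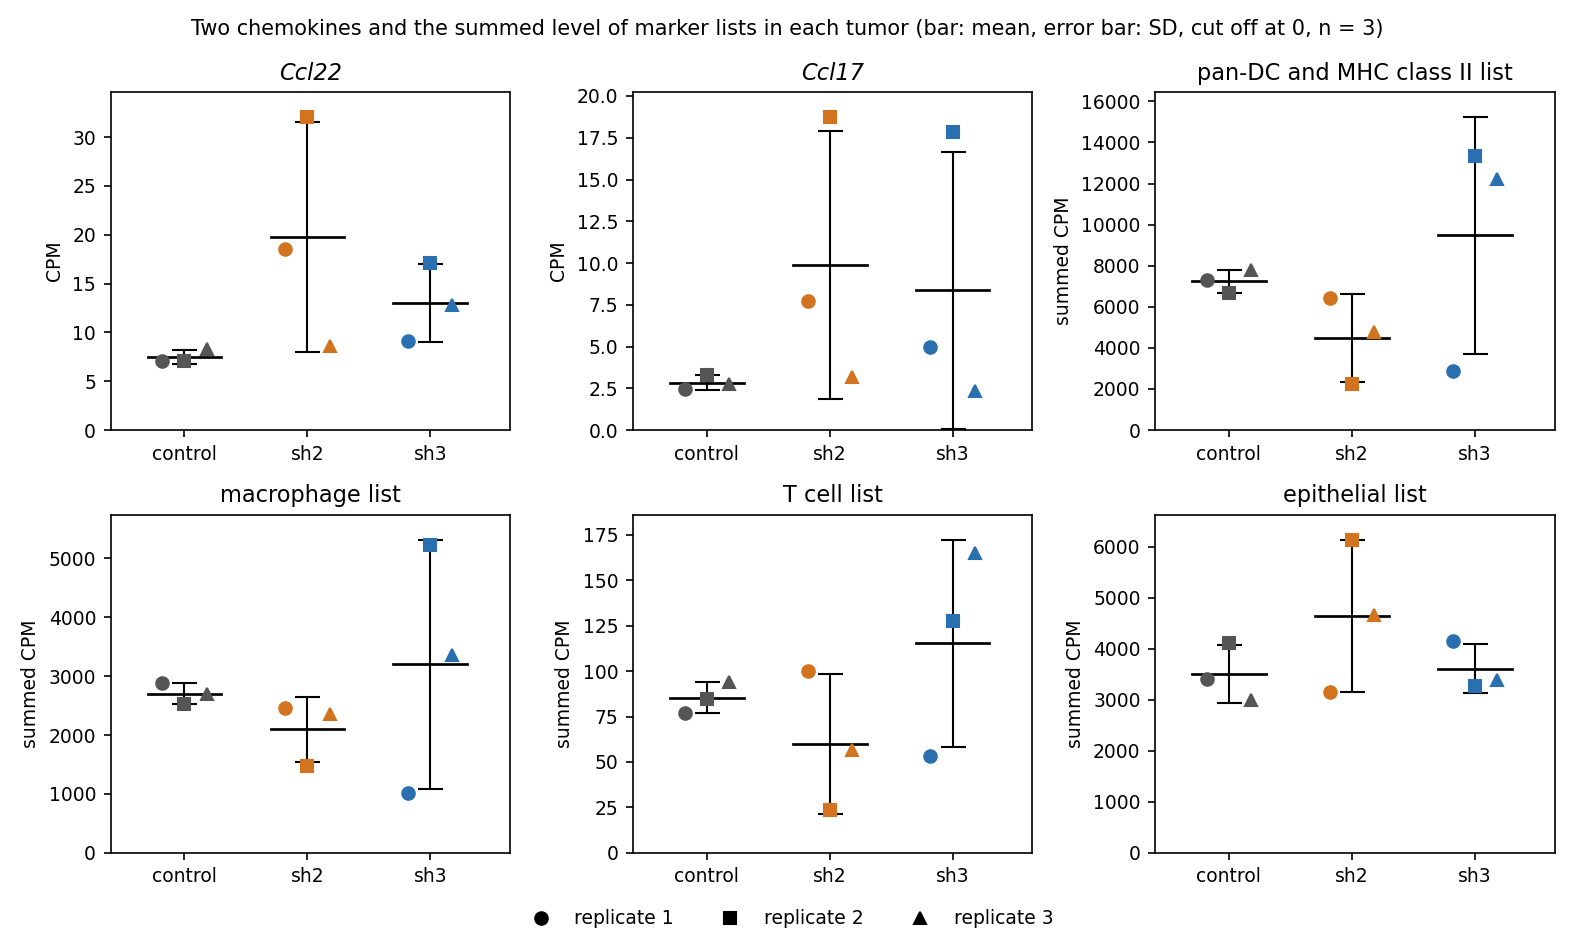
CPM of Ccl22 and Ccl17 and the summed CPM of 4 gene lists in each tumor by group, with points shaped by replicate, the mean as a bar and the SD (n = 3) as error bars cut off at 0. Ccl22 in all 6 shRNA tumors is above the controls, in a comparison where 2.17% of all genes tested were fully apart. The tumors sh2 replicate 2 and sh3 replicate 1 are the 2 lowest for the MHC class II, macrophage and T cell lists.

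Siglech (chromosome 7, 55768178 to 55778925, plus strand, GRCm38), a lectin of pDC that is also made by some macrophages, was the lowest of the 10, with 8 to 49 counts a tumor. It was at 0.937, 1.03 and 0.941 CPM in the controls, which lay close together, 0.884, 0.386 and 0.917 CPM with sh2 and 0.786, 2.49 and 1.71 CPM with sh3. All 3 sh2 tumors were below the controls. The counts of sh2 replicates 1 and 3 (21 and 22) lay within the counting error of those of the controls (22 to 25), and sh3 had 2 tumors above the controls and 1 below. Relative to the control it was −0.40 on the log2 scale with sh2 (standard error 0.50) and 0.77 with sh3 (0.49). Between the shRNAs it was 1.17 (0.50, unadjusted p = 0.0437, FDR = 0.673), and 0.77 with an unadjusted p of 0.179 without sh3 replicate 2. An exact permutation of the 3 against 3 tumors gave p = 0.300, where 0.1 is the smallest possible. The r of Siglech with the mean of the 9 macrophage genes was 0.70 (exact permutation p = 0.0342, adjusted 0.103) and its rho 0.63 (exact permutation p = 0.0760), and r was 0.18 without sh2 replicate 2 and sh3 replicate 2. With group means removed r was 0.95 and rho 0.87, each with an exact permutation p of 0.0417, or 0.139 and 0.167 after adjustment. Of the 12 further pDC genes tested, 10 were lower with sh2 (median −0.27) and 5 with sh3 (median 0.11), beside 48.2% and 45.1% of all genes tested. Among the highest of them, Bst2, the interferon-induced protein tetherin, Irf7, the interferon regulator, and Tcf4, the master regulator of pDC, had log2 fold changes of −0.26, −0.22 and −0.01 with sh2 and 0.39, −0.18 and −0.03 with sh3. Tcf4 is also made by many other cells. Cox6a2, a subunit of cytochrome oxidase, was the only gene of the list with an unadjusted p under 0.05 against the control, at −3.04 with sh2 (unadjusted p = 0.0220, FDR = 0.999) and −1.98 with both (unadjusted p = 0.0430). It ranged from 0.993 to 23.2 CPM within the controls.

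The further dendritic cell lists gave no gene past an FDR of 0.05. For the counts that follow, 48.2% of all genes tested were lower with sh2 and 45.1% with sh3. With sh2, 9 of 10 cDC1 genes tested were lower than in the control, with a median log2 fold change of −0.29. With sh3, 3 of 10 were lower, with a median of 0.19. Irf8, the regulator of cDC1 and pDC fate, was at 71.9, 76.4 and 82.1 CPM in the controls, 79.1, 41.4 and 57.3 CPM with sh2 and 54.5, 128 and 98.7 CPM with sh3. Of 11 cDC2 genes, 6 were lower with sh2 (median −0.05) and 2 with sh3 (median 0.25). Sirpa, the inhibitory receptor of cDC2 and macrophages, had log2 fold changes of −0.31 and 0.10. The only gene of this list with an unadjusted p under 0.05 was Dtx1, a regulator of Notch signaling with a mean of 0.321 CPM over the tumors, at −1.92 with sh2 (unadjusted p = 0.0223) and 2.10 between the shRNAs (unadjusted p = 0.0148).

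Genes of antigen presentation by MHC class II spread widely among the sh3 tumors. Cd74, the invariant chain of MHC class II, was at 3545, 3092 and 3812 CPM in the controls, 3071, 1060 and 2326 CPM with sh2 and 1291, 5540 and 5725 CPM with sh3. All 10 pan-DC and MHC class II genes were lower with sh2 (median log2 fold change −0.70), beside 48.2% of all genes tested. With sh3, 9 of 10 were higher (median 0.41), while 45.1% of all genes tested were lower. None of the 10 had an unadjusted p under 0.05 in these comparisons. They were low in the same tumors, each being lowest in sh2 replicate 2 except Itgax, which was lowest in sh3 replicate 1. Between the shRNAs H2-Ab1, an MHC class II chain, was at 1.26 (unadjusted p = 0.0488) and H2-DMb1, which loads peptide, at 1.1998 (unadjusted p = 0.0427), FDR 0.673 for both. Macrophages and B cells make these genes too.

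Among the growth factors and attractants of dendritic cells, Flt3l, the ligand of Flt3, is outside the rule for named genes and was chosen after its values were seen. It was at 5.15, 5.75 and 5.73 CPM in the controls and at 4.17, 3.19 and 4.05 CPM with sh2. With sh3 it was at 3.84, 5.23 and 6.41 CPM. The sh2 tumors were all below the controls, in a comparison where 11.4% of all genes tested were fully apart in either direction. Flt3l had a log2 fold change of −0.54 with sh2 (unadjusted p = 0.0735). Csf2, the cytokine GM-CSF, had a log2 fold change of 2.19 with sh2 (unadjusted p = 0.0297), with 18.6 CPM in sh2 replicate 2 beside 0.770 to 4.30 CPM in the other 8 tumors. Csf1, the macrophage growth factor, was lower with both shRNAs at −0.47 (unadjusted p = 0.0400). Ccl21a, a lymphatic chemokine that Ccr7 recognizes, was at −2.88 with both (unadjusted p = 0.0240) and −3.28 with sh3 (unadjusted p = 0.0431) but ranged from 0.0414 to 6.79 CPM within the controls. Between the shRNAs Xcl1 (1.46), Ccl5 (1.38) and Cxcl9 (1.90) were higher in sh3 than in sh2 and Csf2 was lower (−2.14), with unadjusted p from 0.0171 to 0.0399.

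The lists of other cells gave their own differences in the same tumors. Over all lists, an unadjusted p under 0.05 was found for 9, 12, 14 and 12 of 131 genes tested (6.87%, 9.16%, 10.7% and 9.16%) with sh2, sh3, both and between the shRNAs, beside 3.52%, 6.63%, 4.09% and 7.18% of all genes tested, and none had an FDR under 0.05. Of 6 fibroblast genes, 4 had an unadjusted p under 0.05 in the sh3 tumors against the control, all lower (Col1a1, Col1a2, Col3a1 and Lum). Col1a1 and Col1a2 also did between the shRNAs, again lower in sh3, while of 7 endothelial genes Cdh5 and Tek had such a p with sh3 against the control, both lower. Of 4 B cell genes, Ms4a1 and Cd79a were higher with sh3 at such a p. Of 5 mast cell genes, Cpa3, Mcpt4 and Cma1 were lower with sh2, and Mcpt4 also with sh3, at such a p. Of 5 monocyte genes Plac8 was higher with sh2 at such a p. Between the shRNAs, Cd3d of 8 T cell genes and Ncr1 and Klrb1c of 4 NK cell genes were higher in sh3 at such a p. None of 9 macrophage genes, 6 epithelial genes or 2 Langerhans cell genes had such a p in any comparison. Cd207, the defining gene of Langerhans cells, was under 0.3 CPM in 8 of 9 tumors and at 2.597 CPM in control replicate 1.

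Taking CD45 as the reference changed the sign of the sh2 difference for 3 genes, Flt3, Zbtb46 and Batf3, and kept it for 7. When each gene was divided by Ptprc in the same tumor, a scaling added after the values had been seen, 6 of 10 genes were lower with sh2 (median log2 difference −0.03) and 5 of 10 with sh3 (median −0.02). Flt3, Zbtb46 and Batf3 then stood at 0.16, 0.03 and 0.04 with sh2. Xcr1 was at −1.01 and Cd209a at −1.30 with sh2, and Cd209a at −1.34 with sh3. These are differences of mean log2 ratios and not edgeR fold changes, so their size cannot be set beside the fold changes given above. On this scale 1 of 10 genes was fully apart with sh3, beside 2.79% of 14582 genes, and 3 of 10 between the shRNAs, beside 2.94%. No gene of the 10 was apart with sh2 or with both shRNAs (background 4.93% and 0.213%). Siglech per Ptprc was higher in all 3 sh3 tumors than in every control, by 0.81, and Clec9a and Siglech were higher in all 3 sh3 tumors than in every sh2 tumor, by 0.92 and 0.85, while Itgae differed by −0.73, with all 3 sh3 tumors below every sh2 tumor. Each of these has an exact permutation p of 0.1, the smallest that 3 against 3 tumors allow. Flt3 and Ptprc themselves had an r of 0.85 (exact permutation p = 0.00353, adjusted 0.0159) and a rho of 0.88 (exact permutation p = 0.00307, adjusted 0.0277), and without sh2 replicate 2 and sh3 replicate 1 r was 0.51 and rho 0.79 (exact permutation p = 0.0480, adjusted 0.199).

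The 10 genes followed each other to varying degrees. Of 45 pairs among them, 40 had a positive r of log2 CPM over the 9 tumors, with a median of 0.40 and a range of −0.18 to 0.87. The gene most like each, among 12673 genes with a mean of at least 50 counts, differed from member to member, and with 9 tumors and so many genes these values of r are a description only. Clec9a was most like Gbp5 (r = 0.996), a guanylate-binding protein induced by interferon, Gm4951 (0.992) and Il18bp (0.992), the secreted inhibitor of interleukin-18. Xcr1 was most like Rab43 (0.984), a small GTPase, Gyk (0.979), a glycerol kinase, and Cd244 (0.978), a receptor of NK and T cells. Batf3 was most like Csf2ra (0.984), the receptor chain for GM-CSF, Mag (0.964) and Fam167b (0.958). Flt3 was most like Ccbl2 (0.987), Itgb7 (0.965), the integrin chain that pairs with Itgae, and Zfp287 (0.958). Among the genes most like Itgae were Kctd12b (0.974) and Rasgrp3 (0.946), a signaling protein of lymphocytes.

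Siglech was most like Tmem123 (0.980), Thumpd2 (0.975) and Arl6 (0.973). Zbtb46 was most like Tbc1d14 (0.982), Wnt7a (0.962) and Hip1 (0.959). Cd209a was most like Dclk1 (0.967), Pomk (0.940) and Dpt (0.936), the last a matrix protein of fibroblasts. Clec10a was most like Adamts15 (0.927), Zfp867 (0.919) and Folr2 (0.916), a folate receptor of tissue macrophages. Fscn1 was most like Eml1 (0.967), Zbtb7c (0.950) and Zdhhc15 (0.948).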

How the data were processed

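RNA of 9 KLN205 tumors, 3 a group, was analysed, with groups and replicate numbers taken from the labels. Per the labels, libraries were stranded and poly(A)-selected. The authors checked reads with FastQC, used STAR 2.5.3a for alignment and featureCounts for gene counts. The build is mm10 per the labels, and the annotation version and strand setting are not given in the sources used here. The deposited raw counts (19481 genes) were used for tests, and the deposited TPM for levels between genes. The deposited signal named CPM is each count scaled by the authors' normalization factor and served only as a check of the counts. A further 10 columns hold the authors' fold changes and p-values and were not used.

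Counts were fitted with edgeR 4.0.16 in R 4.3.3 (filterByExpr by group, 14725 genes kept, TMM, robust quasi-likelihood, all 9 tumors, 1 coefficient a group), with Benjamini-Hochberg adjustment over all genes tested and an FDR threshold of 0.05. Intervals use the t quantile at the total degrees of freedom of the fit, which are the residual and the prior degrees of freedom together. CPM in the text are TMM-scaled. Correlations use log2 CPM with a prior count of 2 and an exact two-sided permutation over the tumors. The Poisson limits and the t quantiles came from scipy 1.17.1. Fits and correlations were tested on simulated data. Alternatives were DESeq2 size factors, the DESeq2 1.42.0 Wald test, the edgeR likelihood ratio test, other count filters, a fit of the compared groups alone, replicate numbers as a block, and leaving out each tumor in turn. Totals of 20653219 to 24047784 counts set the precision.

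The genes, the lists of other genes and the pairs were chosen with earlier results of these data known. The named genes are the members, the target, near paralogs, up to 6 genes a list out of those with the highest mean CPM or an unadjusted p under 0.05, and the 3 most similar genes by r, of which 1 is not reported here. Genes were placed with GENCODE vM21 on GRCm38, and promoters came from RefSeq (8 of the 10 genes had one).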

Additional observations from a re-analysis of the deposited data

How the results depend on the processing

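No dendritic cell gene passed an FDR of 0.05 in any comparison under any of the 16 alternatives tried, and the lowest FDR was 0.171 (Clec9a between the shRNAs, without sh3 replicate 1). Over 7 alternatives that kept all tumors, 267 of 272 fold changes of the 10 genes kept their direction, and 322 of 360 did when a tumor was left out. The 5 exceptions with all tumors were near 0 or had a wide error. Flt3 with both shRNAs was −0.042 with the replicate block. Zbtb46 with sh3 was −0.00058 when 10 counts were required in each tumor, −0.0093 in a fit of the compared groups alone and −0.020 with the replicate block. Cd209a between the shRNAs was 0.12 with the replicate block. Replicate numbers did not pair the tumors (mean r −0.10 between same-numbered tumors after removing group means), and the block changed no call. Over all genes, no other alternative called any, except that the DESeq2 Wald test called 2 with sh2, 41 with sh3, 9 with both and 48 between the shRNAs, and the edgeR likelihood ratio test 0, 8, 8 and 14.

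With a tumor left out, the log2 fold changes that crossed 0 ranged with sh2 from −0.44 to 0.20 for Flt3 and −0.32 to 0.36 for Itgae. With sh3 they ranged from −0.17 to 0.45 for Flt3, −0.27 to 0.21 for Zbtb46, −0.67 to 0.61 for Batf3, −0.10 to 1.15 for Xcr1, −0.067 to 0.80 for Clec9a and −0.57 to 0.081 for Itgae. With both shRNAs they ranged from −0.16 to 0.18 for Flt3, −0.56 to 0.080 for Batf3, −0.86 to 0.053 for Xcr1, −0.50 to 0.066 for Clec9a, −0.30 to 0.10 for Itgae and −0.020 to 0.35 for Siglech. Between the shRNAs they ranged from −0.032 to 0.60 for Flt3, −0.0033 to 0.57 for Zbtb46, −0.22 to 1.06 for Batf3, −0.68 to 0.037 for Itgae, −0.88 to 0.28 for Cd209a, −0.17 to 0.49 for Clec10a and −0.29 to 0.45 for Fscn1. The fold change of Cd209a with both shRNAs ranged from −1.74 to −0.93, and its unadjusted p, 0.0635, was between 0.0367 and 0.259.

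Of the correlations, Fscn1 with Ccr7 was 0.19 with group means removed. Without the 2 tumors farthest on the first gene, Fscn1 with the epithelial genes was 0.55 and Zbtb46 with the endothelial genes was 0.80, the latter ranging from −0.30 to 0.37 with a tumor left out. Ccl22 with both shRNAs ranged from 0.83 to 1.28 and Ccl17 from 1.078 to 1.89. The cause of these changes was not tested. With 3 tumors a group and standard errors of 0.39 to 0.98 for the members with sh2, the 95% interval of Xcr1 ran from −3.25 to 1.16 and that of Cd209a from −3.04 to 0.58, and Siglech rests on 8 to 49 counts.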
